A study of Mus musculus with 3 samples.

Results

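Mitochondrial ribosomal protein genes carry symbols that begin with Mrpl or Mrps, for the large and the small subunit. They were taken here as every protein-coding gene of the deposited count table whose symbol starts in this way and goes on with a digit. The rule found 77 genes of 18287 listed, and all 77 had a value in the table for glucose oxidase alone. RNA came from cultured mouse aortic endothelial cells, a bought primary culture of the lining of the aorta, with 1 library in each of 3 groups. The control group was labelled as control only. The second group received glucose oxidase, which oxidises glucose and releases hydrogen peroxide, at 5 mU/mL for 30 min. The third received the same dose and also 0.2 mM ethyl-2-hydroxybenzylamine (Et2HOBA) for 24 h, a scavenger of the reactive lipid products named isolevuglandins. No library given Et2HOBA alone was analysed here, and the labels do not give the order of the exposures.

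The mitochondrial ribosome translates the few messages encoded by mitochondrial DNA, all of which specify subunits of the respiratory chain or of ATP synthase. Its ribosomal RNAs come from mitochondrial DNA, whereas every one of its proteins is encoded in the nucleus, made in the cytosol and imported. Some of these proteins descend from bacterial ribosomal proteins and others arose in the eukaryotic lineage. In endothelium, which draws much of its ATP from glycolysis, mitochondria are known also as a source of signals such as peroxide.

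Depth was 35005089 to 40212212 reads per library over the listed genes, and the members together took 0.279% to 0.301% of the reads. Member counts ran from 403 to 3373 reads in control, from 450 to 3047 after glucose oxidase and from 469 to 3405 with Et2HOBA. No member thus had few reads in any library, though some share sequence with other genes, as given below. With 1 library per group there was no test between conditions and no replicate check. Nothing in the labels tells how far separate cultures of a group would differ. Each fold difference carries an exact 95% interval (Clopper-Pearson) that covers counting error alone and says how surely the 2 libraries differ, not the treatments. Reads after glucose oxidase alone were worked back from log2 differences that the authors deposited. All 6 endothelial markers checked (Pecam1, Cdh5, Tek, Kdr, Vwf and Tie1) were abundant. Their summed normalised count was 277139 without treatment, 176362 after glucose oxidase and 167867 when Et2HOBA was added. Cdh5 had 53644, 46650 and 61298 in this order, above control with both treatments. The other endothelial markers were below control in both treated libraries, such as Vwf at 45163, 22341 and 12079. The summed markers of each other cell type checked were higher in the treated libraries, while single markers differed in direction. The 2 listed of 4 leukocyte and macrophage markers summed to 8141, 17758 and 26848 in the same order, nearly all from Cd68; Lyz2 was lower, at 180, 78.7 and 82.8, and Ptprc and Adgre1 were not listed. The 2 listed of 4 fibroblast markers summed to 131, 1404 and 2738, nearly all from Pdgfra, while Col1a1 had 27.1, 31.1 and 22.1. Smooth muscle markers (3 of 4 listed) summed to 34.9, 64.2 and 86.7, with Tagln at 8.72, 9.32 and 3.85, and pericyte markers (2 of 3 listed) to 22.3, 60.1 and 92.4. The part of these shifts in the results below was not tested, and in bulk RNA a change in the share of cells of a type and a change in RNA per cell cannot be told apart.

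As a set, the mitochondrial ribosomal protein genes differed little from control in both treated libraries. On the log2 scale of normalised count plus 10, the median ratio of glucose oxidase to control was 0.09, with members between -0.35 and 0.68. The median ratio of glucose oxidase plus Et2HOBA to control was 0.05, with members between -0.75 and 0.96. For reference, the medians over all 13285 protein-coding genes were 0.04 and 0.00. The 95% counting interval of a single member had a median half-width of 0.11 to 0.12 log2 units. Summed over members, the normalised level was 1.07 of control after glucose oxidase (95% interval 1.06 to 1.08) and 1.06 with Et2HOBA (1.05 to 1.07), and with these size factors both intervals lie above equal levels. When libraries were scaled by total count, which moves the median of all genes to -0.13 for Et2HOBA against control, the member median became -0.10 in that comparison, so its sign depends on the scaling.

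None of the 77 members differed by 1 log2 unit or more in any of the 3 comparisons. Over protein-coding genes the share past that limit was 9.3% for glucose oxidase against control, 16.6% for both treatments against control, and 3.32% between the treated libraries. Members are neither rare nor extremely abundant, so the 5933 protein-coding genes within their range of mean normalised count (439 to 3234) are a closer reference. Of those genes 5.95%, 11.9% and 1.87% passed the limit. The standard deviation of the log2 ratio over members was 0.26, 0.38 and 0.17 in the 3 comparisons, against 0.53, 0.77 and 0.34 over the genes in the same range. The interquartile widths differed less in proportion, at 0.36, 0.45 and 0.24 over members and 0.42, 0.66 and 0.34 over the reference genes. These spreads describe 3 libraries and were not tested.

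**Figure D1:**
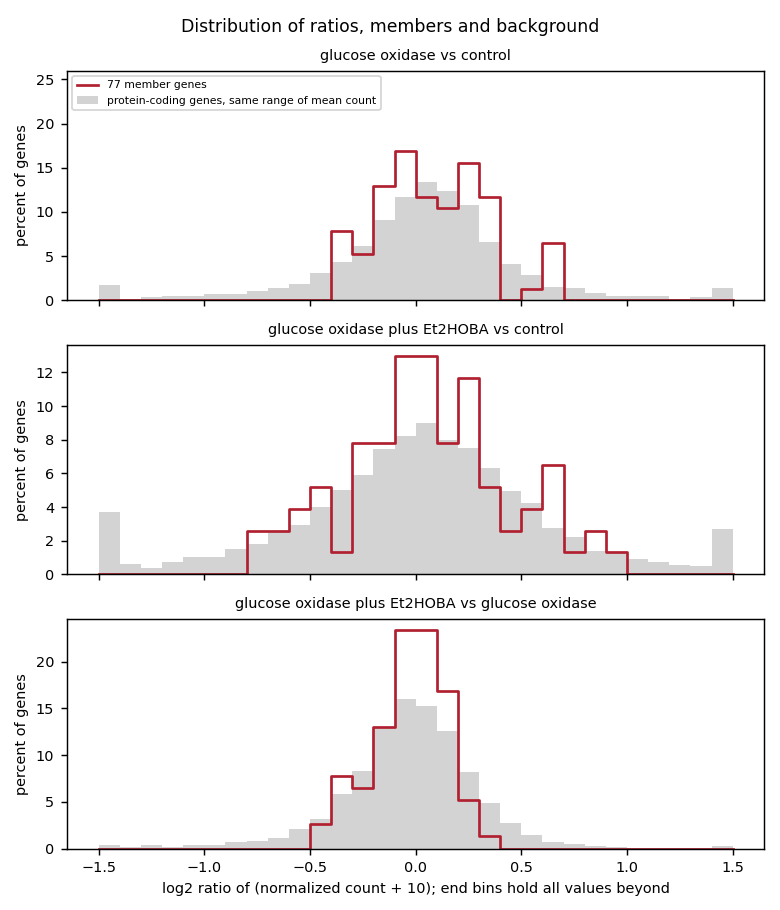
Share of genes (percent) in bins of the log2 ratio of normalised count plus 10, for the 77 members (red line) and the 5933 protein-coding genes in the members' range of mean normalised count (grey bars), in 3 comparisons. Values beyond the axis are collected in the end bins, where the grey bars stand and no member lies.

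A lower limit of 0.5 log2 units, or 1.41-fold, separated the members that stood at the ends. After glucose oxidase 6 members were higher than control by that much, 7.79% of the set against 13.6% of protein-coding genes, and 0 were lower, against 13.5%. With Et2HOBA 12 members were higher, 15.6% against 19.1%, and 7 were lower, 9.09% against 21.5%. Between the treated libraries 0 members passed the limit in either direction, where 5.69% of protein-coding genes were higher and 11.6% lower. Among the 5933 genes in the members' count range the shares higher and lower were nearer, at 9.83% and 8.71% after glucose oxidase, 17.3% and 16.3% with both treatments, and 3.67% and 6.59% between the treated libraries. With total-count scaling the split for both treatments against control became 4 higher and 12 lower. The counting interval lay wholly below equal levels for 19 members and above them for 36 after glucose oxidase, where it excluded equal levels for 66.3% of protein-coding genes. The same counts were 22 and 33 with both treatments, against 75% of protein-coding genes, and 24 and 16 between the treated libraries, against 59.3%. The interval included equal levels for 22 members after glucose oxidase, 22 with both treatments and 37 between the treated libraries. Many single members thus differed by more than counting error, but so did most protein-coding genes, so this alone does not set the members apart. No such share is given for the 5933 genes in the members' count range, although the width of the interval depends on the read count. How these differences compare with the spread between cultures is unknown.

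The members highest with both treatments relative to control were Mrps18b, Mrps31, Mrps10, Mrpl24 and Mrps30. Mrps18b (ENSMUSG00000024436.16, chromosome 17, 35910379 to 35916389, build GRCm38), a small subunit gene related to bacterial S18, had 677 control reads, 1008 reads after glucose oxidase and 1337 with Et2HOBA. Its normalised level was 1.59 of control after glucose oxidase (95% interval 1.44 to 1.76) and 1.96 with Et2HOBA (1.79 to 2.16), the highest ratio of the 77 members. Of the 50-base stretches in its longest transcript 63.7% also occur in Gm16279, a non-coding RNA on the other strand, or the pseudogene Gm13552, but these had only 26 to 27 and 4 to 7 reads. Mrps31 (ENSMUSG00000031533.4, chromosome 8, 22411361 to 22429665), a small subunit protein without a bacterial counterpart and with no shared stretch, had 668, 956 and 1222 reads in the same order of libraries. That is 1.53 (1.38 to 1.69) and 1.82 (1.65 to 2.00) of control. In both genes control was lowest and the library with Et2HOBA highest, each apart from the next by more than counting error.

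Mrps10 (ENSMUSG00000034729.16, chromosome 17, 47368887 to 47381417), the counterpart of bacterial S10, had 1643, 2460 and 2984 reads in the same order. Its level was 1.60 of control after glucose oxidase (1.50 to 1.71) and 1.80 with Et2HOBA (1.70 to 1.92). Mrpl24 (ENSMUSG00000019710.13, chromosome 3, 87919506 to 87923672), which in the ribosome lies near the exit of the peptide tunnel, had 1742, 2569 and 2933 reads, or 1.58 and 1.67 of control. Its exons overlap those of Rrnad1 on the other strand, which had 566, 685 and 547 reads. Mrps30 (ENSMUSG00000021731.10, chromosome 13, 118378381 to 118387252) is a protein of the large subunit in spite of its symbol. It had 408, 494 and 648 reads, and a level of 1.29 of control (1.13 to 1.48) and then 1.58 (1.39 to 1.79). In all 5 genes the larger part of the log2 ratio with both treatments was present after glucose oxidase alone. Both ratios use the same control library and the 5 genes were picked by one of them, so this is not separate evidence. For Mrps30 the step between the treated libraries (log2 ratio 0.28) was close to the first step (0.36).

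Mrpl33, the counterpart of bacterial L33, was among the highest 5 after glucose oxidase and lay at the same level in both treated libraries within counting error. It had 961, 1407 and 1513 reads, and the 95% interval of its level with Et2HOBA, relative to glucose oxidase alone, ran from 0.929 to 1.08. The other members past 0.5 log2 units with both treatments were Mrpl47, Mrps22, Mrpl38, Mrpl32, Mrpl35 and Mrpl15, with log2 ratios of 0.62, 0.62, 0.61, 0.53, 0.51 and 0.51. Mrpl38 sits in the central protuberance of the large subunit, Mrpl32 is known as a substrate of the mitochondrial m-AAA protease, and Mrps22 is a small subunit protein in which mutations cause mitochondrial disease in people.

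**Figure D2:**
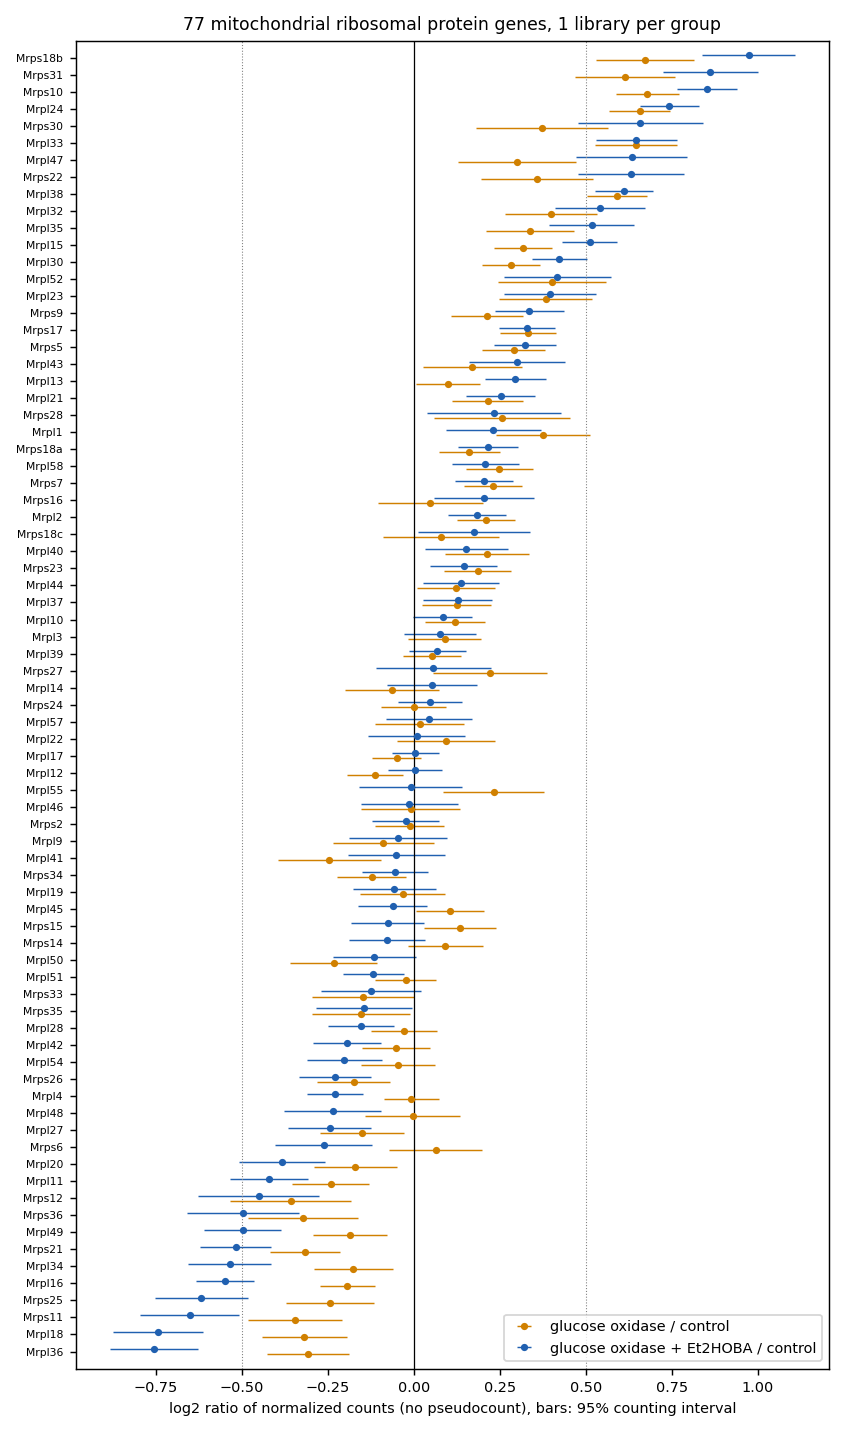
Log2 ratio of normalised counts to control (x axis, no pseudocount) of each of the 77 members (y axis, ordered by the ratio with both treatments) after glucose oxidase (orange) and glucose oxidase plus Et2HOBA (blue), with 95% counting intervals; dotted lines mark 0.5 log2 units either way. Mrps18b lies at the top and Mrpl36 at the bottom, and both ratios use the same control library.

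At the other end lay Mrpl36, Mrpl18, Mrps11, Mrps25 and Mrpl16. Mrpl36 (ENSMUSG00000021607.9, chromosome 13, 73328513 to 73332178), the counterpart of the small zinc-binding bacterial protein L36, had 1342 reads without treatment, 1015 after glucose oxidase and 800 with Et2HOBA. Its level was 0.809 of control after glucose oxidase (95% interval 0.744 to 0.878) and 0.592 with Et2HOBA (0.542 to 0.647). Mrpl18 (ENSMUSG00000057388.9, chromosome 17, 12911349 to 12916345), the counterpart of L18 in the central protuberance, had 1256, 942 and 755 reads, or 0.802 (0.736 to 0.873) and 0.597 (0.545 to 0.654) of control. In both genes control was highest and the library with Et2HOBA lowest.

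Mrps11 (ENSMUSG00000030611.10, chromosome 7, 78783119 to 78792989), a small subunit protein with a bacterial counterpart, had 1030, 759 and 660 reads. With Et2HOBA it stood at 0.637 of control (95% interval 0.577 to 0.703). Mrpl16 (ENSMUSG00000024683.6, chromosome 19, 11770391 to 11774960), whose bacterial counterpart lies near the peptidyl transferase centre, had 2855, 2336 and 1965 reads and reached 0.684 of control (0.645 to 0.725). Mrps25 (ENSMUSG00000014551.8, chromosome 6, 92169525 to 92184033), which has no bacterial counterpart, had 1134, 896 and 744 reads. For Mrps25, however, 73.9% of its stretches are shared with the overlapping gene Nr2c2 or the pseudogene Gm42933. Its reads therefore depend on how shared reads were assigned. Nr2c2 had 1275, 1240 and 1517 reads, and Gm42933 had 12, 0 and 5. Mrpl34 and Mrps21 completed the 7 members below -0.5, with log2 ratios of -0.53 and -0.51. By glucose oxidase alone the lowest 5 were Mrps12, Mrps11, Mrps36, Mrpl18 and Mrps21, between -0.35 and -0.31. Mrps12, the counterpart of S12 of the decoding centre, had 637, 465 and 469 reads, and its level with Et2HOBA was 0.937 of that after glucose oxidase (95% interval 0.823 to 1.07). In the authors' deposited table for both treatments against control, Mrps18b had a value of 0.90 and Mrpl36 of -0.71. In the authors' deposited table for glucose oxidase against control, Mrps10 had 0.62 and Mrpl36 -0.26.

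**Figure D3:**
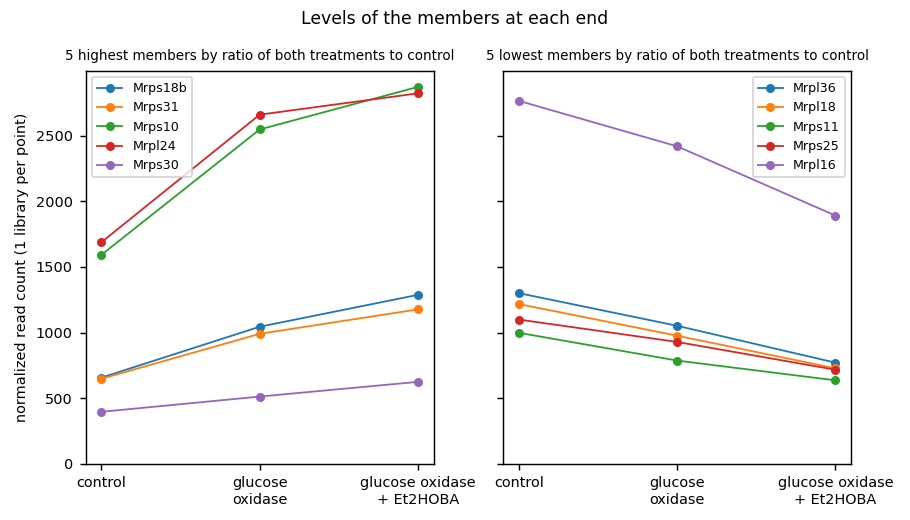
Normalised read count (y axis, from 0) in the 3 libraries (x axis) for the 5 members highest and the 5 lowest by the ratio of both treatments to control; each point is 1 library. In all 10 genes the glucose oxidase library lies between control and the library with Et2HOBA, an order that picking genes by the ratio of those libraries favours. Of all 77 members, 26 have this order rising from control and 23 falling.

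Set directly against each other, the treated libraries differ in the Et2HOBA exposure. The median ratio over members was 0.00, with a range of -0.44 to 0.33. The lowest 5 were Mrpl36, Mrpl18, Mrps25, Mrpl34 and Mrpl16, at 0.733 (95% interval 0.667 to 0.805), 0.745, 0.772, 0.780 and 0.782 of the level after glucose oxidase alone. The highest 5 were Mrpl47, Mrps18b, Mrps30, Mrps22 and Mrps31, at 1.26 (1.13 to 1.40), 1.23, 1.22, 1.21 and 1.19. These are genes that also stand at the ends of the comparison of both treatments with control; the comparisons share libraries, so this is not separate evidence. By order of normalised count, 26 members had control lowest and the library with Et2HOBA highest, 23 had the reverse order, 18 had glucose oxidase alone highest and 10 had it lowest.

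The small and large subunits had nearly equal medians. The 26 small subunit members had medians of 0.08, 0.05 and -0.01 in the comparisons of glucose oxidase with control, both treatments with control, and the treated libraries, and the 50 large subunit members had 0.09, 0.05 and 0.00. Mrps36 was counted in neither, since the protein is known as a part of the 2-oxoglutarate dehydrogenase complex. It had 743, 556 and 530 reads, or 0.800 and 0.709 of control, and shares 36.2% of its stretches with other annotated genes, its pseudogenes Mrps36-ps1 and Mrps36-ps2 among them. The 45 members listed here with a bacterial counterpart had medians of 0.09 and 0.05 against control, and the 31 listed without one 0.10 and 0.04. In this split Mrps18b was counted among the 31 without a counterpart, although it is related to bacterial S18. Mrps18a was placed in the same way. The list was not checked against protein sequences, so other members of the 31 may have bacterial relatives too. With both treatments 6 of the 7 members below -0.5 had a bacterial counterpart by this split, Mrps25 being the exception, as did 7 of the 12 above 0.5.

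The L7/L12 stalk, on which translation factors land, and its base are formed in part by Mrpl10, Mrpl11, Mrpl12, Mrpl53 and Mrpl54, of which Mrpl53 was not listed. Mrpl12 had 2642, 2285 and 2667 reads, and the 95% interval of its level with Et2HOBA, relative to control, ran from 0.950 to 1.06. Mrpl10 had 2130, 2163 and 2272 reads and Mrpl54 had 1466, 1328 and 1283. Mrpl11 was the one member of this list whose log2 ratio lay beyond -0.4, with 1494, 1182 and 1123 reads and 0.747 of control with both treatments (0.691 to 0.808). The 6 genes listed around the exit of the peptide tunnel (Mrpl22, Mrpl23, Mrpl24, Mrpl44, Mrpl45 and Mrpl47) were all above control after glucose oxidase, with a median of 0.21, and 5 of 6 were above it with both treatments, with a median of 0.26. With total-count scaling these were again 6 of 6 after glucose oxidase, but 3 of 6 with both treatments, at a median of 0.11. Of all 77 members, 44 were above control after glucose oxidase and 43 with both treatments, or 41 and 30 with total-count scaling. Of 13285 protein-coding genes, 7171 and 6655 were above control in the main scaling. The 6 exit genes differed in size of change. Mrpl24 and Mrpl47 passed 0.5 with both treatments, Mrpl23 had 810, 988 and 1072 reads (log2 ratio 0.39), and Mrpl44 had a log2 ratio of 0.14. Mrpl22, with 816, 814 and 826 reads, and Mrpl45, which helps to anchor the ribosome at the inner membrane and had 1630, 1640 and 1572 reads, were within counting error of control with both treatments.

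Levels of different members were compared per kb of the longest principal transcript. In control the median was 885 normalised reads per kb, with the middle of the set between 459 and 1409 and the full range from 119 to 3660. Mrps21, a small subunit protein related to bacterial S21, was highest at 3660, followed by Mrpl42 at 2565 and Mrpl16 at 2381. The lowest were Mrps30 at 119, Mrpl47 at 150 and Mrps25 at 181 normalised reads per kb. The order depends on the transcript used as length: per kb of all merged exons Mrps21 and Mrps30 kept their places at the ends, but Mrpl34 and Mrpl2 took the next places at the top and Mrps35 and Mrpl48 at the bottom. The median per kb was close in the other libraries, at 886 after glucose oxidase and 835 with Et2HOBA.

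Genes that work with the mitochondrial ribosome were grouped into lists by known role. The 5 further ribosome proteins that carry other symbols had medians of -0.02 after glucose oxidase and -0.16 with both treatments. Among them Chchd1 (584, 741 and 849 reads) and Dap3, also known for a role in cell death (2280, 2611 and 2980 reads), were higher, and Ptcd3 (1979, 1728 and 1357 reads) was lower, with log2 ratios of 0.52, 0.38 and -0.55 for both treatments. The 13 translation factors had medians of 0.05 and -0.10, with 1 past 0.5 in each direction under both treatments: Mtrf1l, a release factor, at 0.54, and Pdf, a deformylase, at -0.66 on only 17, 20 and 7 reads. Next to these were Guf1 with 1728, 2398 and 1961 reads (0.17) and Mtrf1 with 190, 189 and 144 (-0.39). With total-count scaling the medians of this list were -0.01 and -0.25, with 10 of 13 below control under both treatments. Of 22 genes for ribosome assembly and rRNA processing, 17 were above control after glucose oxidase and 15 with both treatments, with medians of 0.20 and 0.24. For reference, 7171 and 6655 of 13285 protein-coding genes were above control. With total-count scaling this list had 14 and 13 of 22 above control, with medians of 0.15 and 0.09. Gtpbp10, a GTPase of large subunit assembly, had 1035, 1442 and 1853 reads (log2 ratio 0.82 with both treatments), and Mrm3, which methylates the large rRNA, had 1319, 666 and 635 (-1.05), the one gene of this list past 1. The methyltransferase Mrm2 had 410, 319 and 207 reads (-0.96). The 11 genes of mitochondrial transcription and mRNA stability had medians of 0.10 and 0.17 (0.05 and 0.02 with total-count scaling), with Mterf1a (146, 175 and 217 reads) highest at 0.53 and Mterf2 (236, 195 and 167 reads) lowest at -0.48 with both treatments.

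The medians of the ribosome's own RNAs and of its messages lay apart from that of its protein genes, though some messages fell within the members' range. Of the 13 mitochondrially encoded mRNAs, 12 were below control after glucose oxidase and all 13 with both treatments, where the median was -0.77. Of these, mt-Nd6 had 10162, 6357 and 4756 reads, mt-Co1 182605, 127332 and 138389, and mt-Nd2 36748, 37828 and 31600. A group of 6 mRNAs (mt-Nd3, mt-Nd4l, mt-Co2, mt-Co3, mt-Atp6 and mt-Atp8) had log2 ratios of -5.09 to -2.60 after glucose oxidase and of -1.16 to -0.72 with both treatments. Of this group 5 share 98.0% to 100% of their stretches with other annotated genes, so their values depend on how shared reads were assigned. For mt-Atp8 no stretch is shared with an annotated gene, but sequence outside annotated genes was not searched. Whether its value depends on read assignment was not tested. Outside the group, mt-Co1 and mt-Nd4 share 51.1% and 62.2% of their stretches. The rRNAs mt-Rnr1 and mt-Rnr2 went the other way, with 10298, 33521 and 39858 reads for mt-Rnr1 and 22138, 67743 and 76591 for mt-Rnr2. Together they reached 3.34 of control after glucose oxidase (95% interval 3.30 to 3.38) and 3.57 with both treatments (3.52 to 3.61). The libraries were made from polyadenylated RNA, which holds an unknown share of these rRNAs, so the values are not a measure of rRNA content. The 81 cytosolic ribosomal protein genes had higher medians than the mitochondrial set, at 0.31 and 0.40, and 78 of 81 were above control with both treatments, against 43 of the 77 members. With total-count scaling these were 75 of 81 and 30 of 77.

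**Figure D4:**
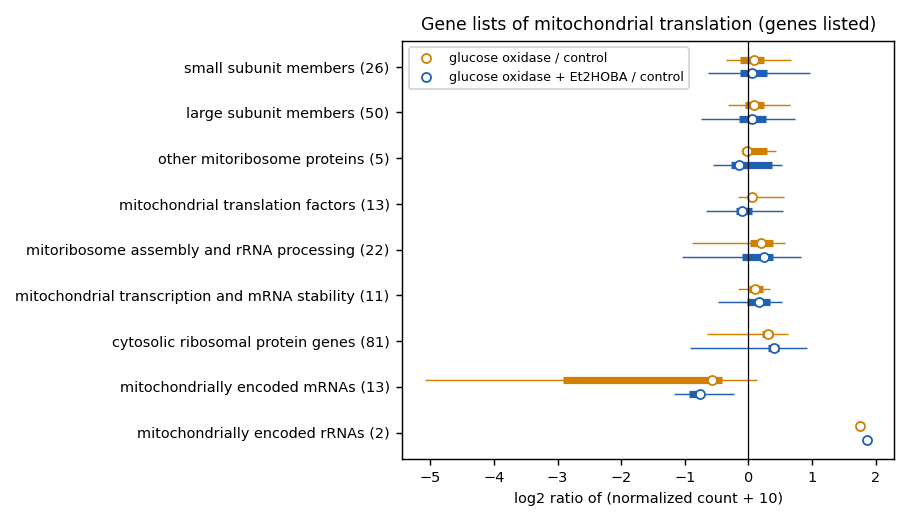
Log2 ratio to control of normalised count plus 10 (x axis) for gene lists of mitochondrial translation and for the cytosolic ribosomal protein genes (y axis, number of listed genes in brackets), after glucose oxidase (orange) and both treatments (blue). Circles are medians, thick bars quartiles and thin lines the full range; the Mrpl and Mrps lists sit near 0, mitochondrial mRNAs to the left and mitochondrial rRNAs to the right.

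Some members start near a gene on the other strand, a trait whose share over all protein-coding genes was not computed. A listed protein-coding gene on the other strand started within 1000 bases of the start of 31 members, and Mrps11 and Mrpl46 were each other's partner, which leaves 30 distinct pairs. Over these pairs the ratios of member and partner were at most weakly related. Pearson's r was 0.08 for glucose oxidase against control and -0.02 for both treatments against control (Spearman's rho 0.04 and 0.01), and -0.22 between the treated libraries (rho -0.24), given as a description across gene pairs measured in the same libraries. In some pairs, named after their values were seen, the partner was far below control and the member was not. Ska3, a spindle protein that starts 49 bases from Mrpl57, had 179, 49 and 26 reads, whereas Mrpl57 had 1010, 956 and 1048. Ncapd2, a condensin subunit 100 bases from Mrpl51, had 3226, 1287 and 678 reads, against 2169, 1996 and 2012 for Mrpl51. Members at the ends of the set also differed from their partners. Ppp1r10, 45 bases from Mrps18b, had 3329, 2501 and 1984 reads, a log2 ratio of -0.75 with both treatments against 0.96 for Mrps18b. Tcp1, a chaperonin subunit whose 5′ end overlaps that of Mrpl18, had 8778, 9397 and 11252 reads, a ratio of 0.35 against -0.74 for Mrpl18. Mrpl46 had 827, 769 and 825 reads where Mrps11 stood at 0.637 of control. Ndufs6, a complex I subunit whose exons overlap those of Mrpl36 on the other strand, had 1436, 1276 and 1257 reads.

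**Figure D5:**
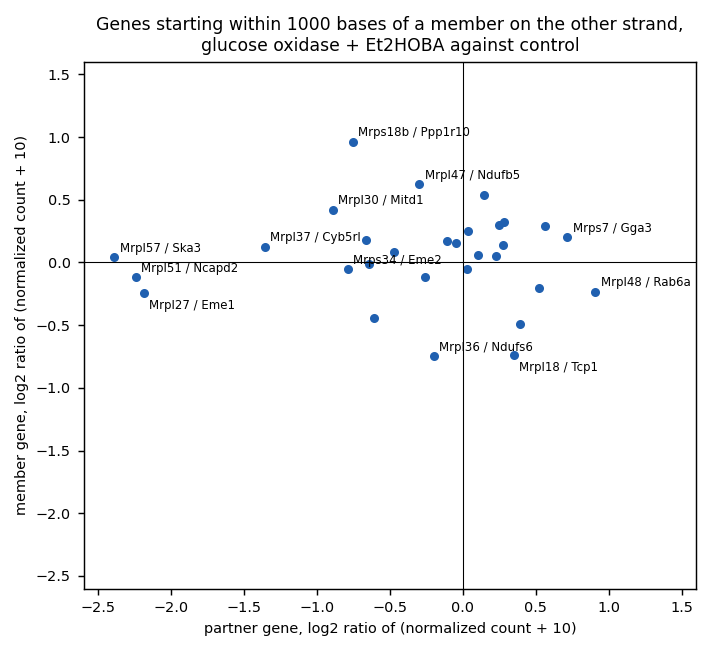
Log2 ratio of both treatments to control (normalised count plus 10) of the 30 partner genes (x axis) and of the members beside them (y axis), on equal scales; pairs with a large ratio are named. Points spread along the x axis down to -2.39 (Ska3) while all members stay between -0.75 and 0.96.

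Promoter windows, from 250 bases before to 50 after the start, were found in RefSeq (build GRCm38.p6) for 68 of the 77 members. They were searched on both strands for the letters of 5 motifs: CCGGAAG (ETS factors such as GABP), the NRF1 palindrome (GCGC, any 2 bases, GCGC; NRF1 regulates nuclear genes for mitochondria), AAGATGGCG (YY1), CACGTG (E-box) and TGATGNAA (the composite C/EBP-ATF element). CCGGAAG was in 24 member windows, 35.3% against 17.7% of 10479 windows of listed protein-coding genes and 9.12% of all windows. The NRF1 palindrome was in 14, 20.6% against 13.1% and 6.43%. AAGATGGCG was in 8, 11.8% against 3.11% and 1.49%, and CACGTG in 5, 7.35% against 9.95% and 7.24%. TGATGNAA was in 0 of 68 windows, against 2.30% of protein-coding and 4.06% of all windows, and 26 member windows held none of the 5 motifs. The 24 members with CCGGAAG had a median log2 ratio of 0.07 with both treatments, against 0.03 for those without it, and the difference was not tested.

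To show what these start regions look like at both ends of the set, the 200 bases before the start are printed for 4 members, with motif letters in capitals. They come from the 16 members with no annotated exon in that stretch, from the 3 highest and the 3 lowest of those by the ratio of both treatments to control; Mrps9 and Mrps36, also among these 6, held no motif there. Mrps22 (chr9:98601680-98601879, minus strand; log2 ratio 0.62), Mrpl52 (chr14:54426709-54426908, plus strand; 0.41) and Mrpl34 (chr8:71464726-71464925, plus strand; -0.53) hold CCGGAAG or its reverse complement, and Mrpl20 (chr4:155802678-155802877, plus strand; -0.38) holds CACGTG.
Mrps22: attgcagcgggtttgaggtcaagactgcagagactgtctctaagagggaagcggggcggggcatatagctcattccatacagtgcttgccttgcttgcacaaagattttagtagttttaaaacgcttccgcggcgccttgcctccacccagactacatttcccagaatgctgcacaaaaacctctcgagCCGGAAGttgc
Mrpl52: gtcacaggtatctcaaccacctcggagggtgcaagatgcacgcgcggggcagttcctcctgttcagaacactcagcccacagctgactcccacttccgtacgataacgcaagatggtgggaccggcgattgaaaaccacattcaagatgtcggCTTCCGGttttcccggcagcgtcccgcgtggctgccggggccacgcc
Mrpl34: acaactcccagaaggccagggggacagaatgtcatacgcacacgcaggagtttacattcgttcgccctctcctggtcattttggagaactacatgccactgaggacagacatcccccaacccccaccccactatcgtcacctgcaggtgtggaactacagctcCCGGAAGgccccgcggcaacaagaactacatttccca
Mrpl20: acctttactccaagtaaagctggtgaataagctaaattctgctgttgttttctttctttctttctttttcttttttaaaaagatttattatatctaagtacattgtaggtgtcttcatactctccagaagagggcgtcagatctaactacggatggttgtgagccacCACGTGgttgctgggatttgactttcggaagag
The same ETS letters stand before a gene that was higher (Mrps22, with 567, 680 and 883 reads) and before one that was lower (Mrpl34, with 1372, 1136 and 953). A match is a run of letters, not a measured binding site.

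How shared reads were assigned bears on part of the set. Of the 77 members 30 had no 50-base stretch of their longest transcript in common with another annotated gene, and 21 shared more than 10% of their stretches. Shorter transcripts of a member were not searched, so the 30 are not free of shared sequence. Mrpl46 is among them, although Mrps11 shares 12.5% of its stretches with Mrpl46. So is Mrpl36, whose exons overlap those of Ndufs6. The medians over the 30 were 0.07 after glucose oxidase and 0.03 with both treatments, and over the 21 they were -0.03 and 0.00. Exons of 32 members overlap another gene, 27 of them a gene on the other strand; the kit marks strand, but whether counting used it is not given in the sources used here. Among the 30 members with no shared stretch, 3 were higher and 3 lower by 0.5 log2 units with both treatments, Mrps31 and Mrpl36 at the ends.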

How the data were processed

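Poly(A) RNA of mouse aortic endothelial cells was sequenced from stranded libraries, 1 in each of 3 groups, per the labels' protocols. The submitters' processing notes name STAR, featureCounts and build mm10, without versions or roles. The authors deposited raw read counts and log2-normalised values of control and of glucose oxidase plus Et2HOBA, and the log2 difference of both, per the file headers. For glucose oxidase against control they deposited a symbol and a log2 difference only, and for the treated libraries 7 genes, none a member. Inverting the inverse hyperbolic sine form of these values with the control counts returned reads for the glucose oxidase library. Of 18258 genes with a symbol in both tables, 100% came out within 0.01 of a whole read. After adding 1 read to every control value, 3.30% did. Another 29 rows were placed by whole reads. The form is inferred from the values.

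Size factors (median of ratios over the 3 libraries: 1.03, 0.965 and 1.04) divided the counts, and 10 was added before taking log2. No count model was fitted, since 1 library per group gives no spread. All 77 members had the GENCODE M21 position. Stretches shared with other genes, exon overlaps and lengths came from GENCODE M21, promoters from RefSeq. Named members are the 5 highest and 5 lowest in each comparison, the 3 most and 3 least abundant per kb, and 2 role lists, with up to 2 genes per end of each other list. Others were named after their values were seen, as were the pairs of neighbouring genes. Members and lists were chosen with earlier results of these data known. Recovery and intervals were tested on simulated data. Tools were Python 3.11.15, scipy 1.17.1 and edgeR 4.0.16 (TMM factors only).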

Additional observations from a re-analysis of the deposited data

How the results depend on the processing

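With 1 library per group no replicate could be left out. No paired analysis was possible because each group holds a single library. Pseudocounts of 1 and 50, TMM factors, a filter at a mean normalised count of 50 and the scale of the authors' deposited values gave medians of 0.08 to 0.09 after glucose oxidase, 0.04 to 0.05 with both treatments and -0.01 to 0.00 between the treated libraries, and counts at 0.5 log2 units within 1.5 times. Total-count scaling moved the median for both treatments against control to -0.10, its members higher by 0.5 to 4 and lower to 12, and gave 2 members lower between the treated libraries; the cause was not tested. At a limit of 1 log2 unit all counts were 0. Smaller sets gave smaller counts by construction. Over the 30 members with no shared stretch, both treatments against control gave 3 higher and 3 lower, and glucose oxidase gave 2 higher. Over the 34 members outside overlapping or neighbouring starts, an alternative chosen after seeing the data, these were 6, 3 and 3. Of the named members' ratios, 26 of 78 moved beyond counting error with total-count scaling and 8 of 78 on the deposited scale, and none past 0.5 changed sign. At this depth the 95% interval of a single member had a median half-width of 0.12 log2 units for both treatments against control.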
